A study of Mus musculus with 7 samples.

Results

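The 48 genes described here encode enzymes that add methyl groups to lysines of histone proteins or remove them, together with subunits or partners of their complexes. The genes were chosen by name, with earlier results of these data known. Of them, 45 had an array row whose platform annotation gave that gene alone, out of 13562 genes named in this way. Prdm9, Ash1l and Suv39h1 had no such row and are not analysed here. Of the 45, 16 encode demethylases (erasers), 16 encode methyltransferases (writers), and 8 encode subunits or partners of writer complexes (writer subunits below). The other 5 belong to these families without a settled histone lysine target in these lists (Kdm8, Jmjd6, Kmt2e, Smyd2 and Smyd3).

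Methylation of histone H3 marks chromatin by position: methylated lysine 4 (H3K4) lies at active promoters and enhancers, H3K36 and H3K79 along transcribed genes, and H3K9 and H3K27 at silenced regions. Polycomb repressive complex 2 (PRC2) writes H3K27 methylation through the alternative catalytic subunits Ezh1 and Ezh2, which act with Eed and Suz12. In embryonic stem cells (ESCs) this mark holds developmental genes silent beside H3K4 methylation, and the demethylases Utx (gene Kdm6a) and Jmjd3 (gene Kdm6b) remove it. Utx is also a subunit of the complexes in which Kmt2c and Kmt2d methylate H3K4.

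Gene expression was measured on Affymetrix arrays in 7 mouse samples, 1 array for each condition. V6.5 ESCs were profiled as wild type (WT, Utx +/Y) and as Utx knockout (KO, Utx -/Y). Mouse embryonic fibroblasts (MEFs) named V19-OSKM, in which doxycycline (DOX) switches on Oct4, Sox2, Klf4 and Myc (OSKM), the reprogramming factors, were profiled in both genotypes without and with the drug. The last sample was MEFs generated from Nanog-/- ESCs and transduced with an OSKM lentivirus for 8 days. The labels give no age, no time of DOX treatment, no clone and no number of animals or cultures, and they name ESC medium for every sample. Values are the authors' log2 values, differences are on the log2 scale, and a value under 7.34, the 40th percentile of all values (the floor), is treated as not clearly detected. With 1 array each, a difference of 2 arrays has no replicate check and no p-value. Where 4 MEF values stand together, they are in the order WT without DOX, KO without DOX, WT with DOX and KO with DOX.

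Several libraries stood apart or went against their labels. The mean log2 value of 10 pluripotency markers was 11.49 and 11.71 in the WT and KO ESCs and 5.15 to 6.79 elsewhere. Pou5f1, which encodes Oct4, read 8.19 and 12.59 in WT MEFs without and with DOX, but 11.26 in the library labelled KO without DOX and 5.12 in the one labelled KO with DOX. The mean of 10 fibroblast markers was 11.13 to 12.27 in the fibroblast samples other than WT MEFs with DOX, where it was 7.70 and where 9 epithelial markers averaged 10.97. In ESCs the fibroblast markers averaged 8.03 in WT, with 7 of 10 above the floor, and 6.21 in KO, with 1 of 10. Macrophage markers averaged 9.78 in WT MEFs without DOX, with 10 of 10 above the floor, and 5.98 to 7.79 in the other MEF libraries. Cell cycle genes averaged 10.81 and 10.98 in the ESCs, 9.19 to 10.25 in the MEFs and 9.18 on the Nanog KO array. That array had a median of 8.55 over all rows, against 7.68 to 7.84 on the other 6. In such mixed cultures, fewer cells of a type and less RNA per cell cannot be told apart.

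For the members, the KO library with DOX lay nearest to the WT MEFs without DOX. The median absolute difference over 45 members was 0.13 between these libraries, and 0.27 between the WT MEFs without DOX and the KO library of the same label. From the WT MEFs with DOX, the KO library with DOX was 0.29 away and the one without DOX 0.35. Over all genes above the floor these distances were 0.22, 0.41, 0.45 and 0.51, in the same order. Both KO MEF libraries are therefore named by their labels only.

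The clearest pattern among the members was between cell types: ESCs held more RNA for PRC2 subunits and for the shared core of the H3K4 methyltransferase complexes than MEFs did. The 2 ESC libraries were set against the 4 MEF libraries with limma over 10673 genes, with genotype and DOX left in the spread. Of 44 members above the floor, 26 passed an adjusted p of 0.05, 23 of them higher in ESCs and 3 lower. Among all genes tested, 25.0% passed, 14.4% as higher and 10.6% as lower. The median difference was 0.79 over the 45 measured members and 0.00 over all genes tested. Without any floor, 25 of 45 members passed, 22 higher and 3 lower, against 20.9% of all genes (12.5% higher and 8.36% lower). The ESC and MEF values of 33 of 44 members did not overlap, 28 with ESCs higher and 5 lower, against 55.5% of genes (30.4% higher and 25.1% lower). Kdm8 never exceeded the floor on the 6 arrays, and Suv39h2 exceeded it only in the ESCs.

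This count rests on having both ESC libraries. Without the KO ESC library 0 of 44 members and 0.333% of genes passed, with 21 members and 2138 genes at an unadjusted p under 0.05, and without the WT ESC library 6 members, 4 higher and 2 lower, and 2.72% of genes passed (1.10% higher and 1.62% lower). Without both KO-labelled MEF libraries, 14 members passed, against 9.27% of genes, and leaving out either the WT MEFs without DOX or the KO library with DOX left 15, against 14.4% and 11.7% of genes. Without the WT MEFs with DOX, 29 of 43 passed, against 45.0% of genes. In each of these fits the 26 members kept the direction of their difference. The 19 measured cell cycle genes were higher in ESCs in 19 of 19 cases, at a median difference of 1.39 with 12 passing, and their part in the differences of the members was not tested.

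**Figure D1:**
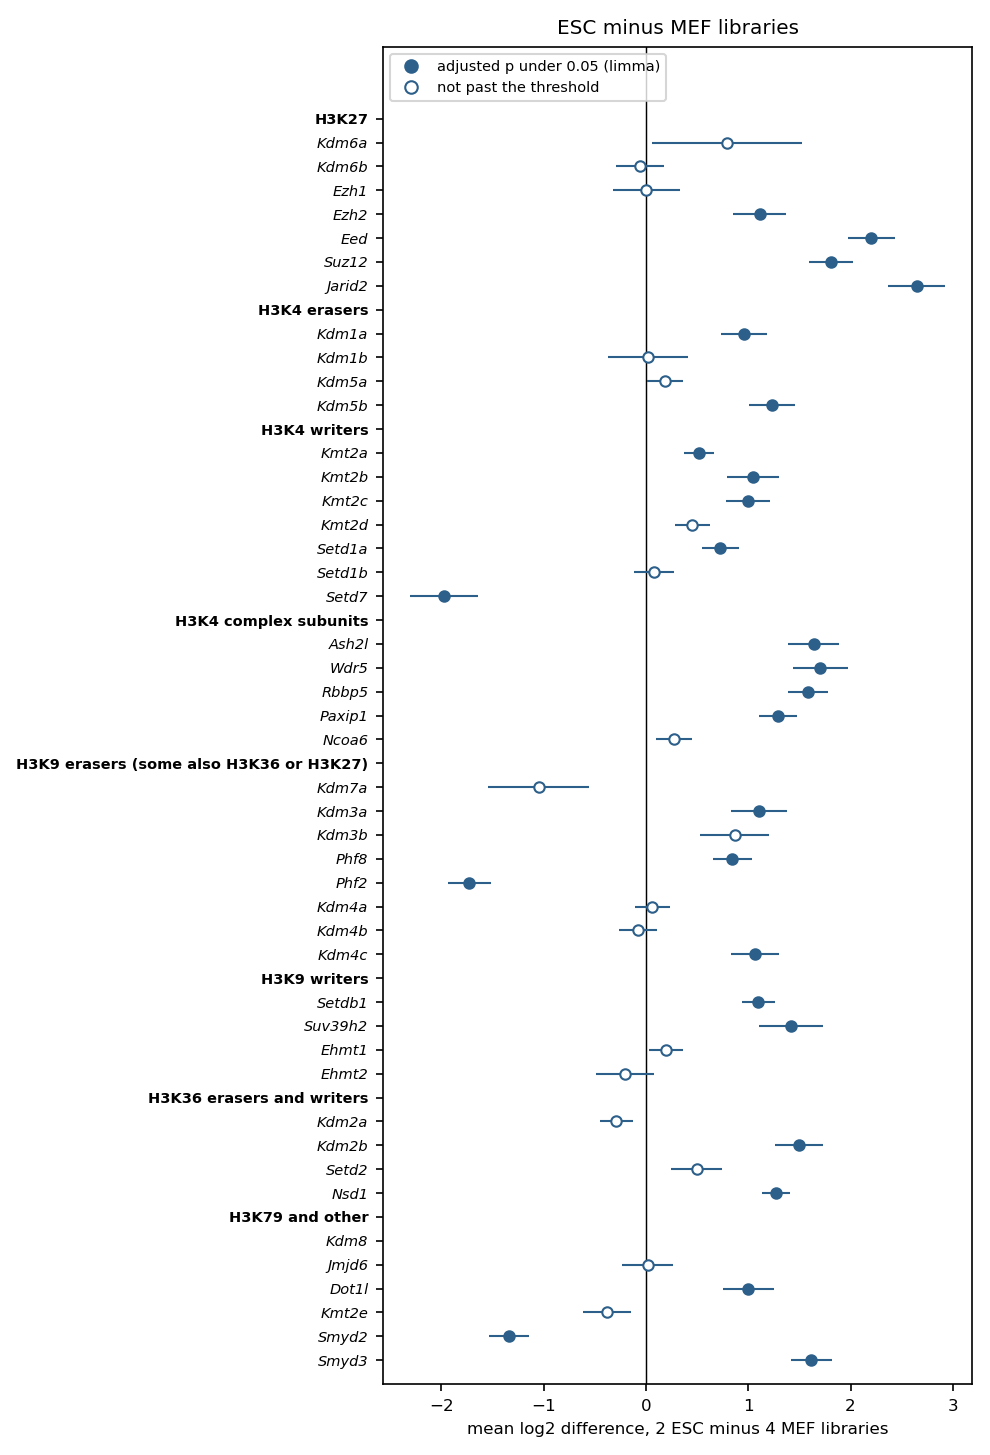
Mean log2 difference of the 2 ESC libraries minus the 4 MEF libraries for each member, grouped by the histone lysine and the role of the enzyme; bars are the standard errors of the fit, and filled points passed an adjusted p of 0.05 with limma. Jarid2, Eed and Suz12 lie farthest to the right, at 2.65, 2.20 and 1.81, and Setd7, Phf2 and Smyd2 are the filled points to the left of 0, while Kdm8, which stayed under the floor, has no point.

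PRC2 genes had the 3 largest positive differences. For the 4 PRC2 genes that passed, the 250 bases before the annotated start are printed from RefSeq (build GRCm38.p6), 5′ to 3′ on the strand of the gene, because these genes were high together in ESCs. Capitals mark the letters TTTCCCGC, TTTCGCGC, TTTGCCGC or TTTGGCGC, searched on both strands, which are forms of the site bound by E2F factors of the cell cycle. The windows are chr6:47595031-47595280 (minus strand) for Ezh2, chr7:89980977-89981226 (minus strand) for Eed, chr11:79992856-79993105 (plus strand) for Suz12 and chr13:44730524-44730773 (plus strand) for Jarid2, the first of its 2 listed starts.
Ezh2: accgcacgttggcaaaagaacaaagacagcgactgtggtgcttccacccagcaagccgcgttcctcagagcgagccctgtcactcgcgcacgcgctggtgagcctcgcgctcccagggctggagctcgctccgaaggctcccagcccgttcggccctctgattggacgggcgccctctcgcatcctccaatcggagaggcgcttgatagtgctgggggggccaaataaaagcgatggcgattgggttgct
Eed: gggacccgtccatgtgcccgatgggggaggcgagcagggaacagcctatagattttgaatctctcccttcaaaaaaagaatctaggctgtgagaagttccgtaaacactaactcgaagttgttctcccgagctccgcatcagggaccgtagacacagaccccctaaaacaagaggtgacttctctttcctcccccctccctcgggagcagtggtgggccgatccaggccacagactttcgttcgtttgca
Suz12: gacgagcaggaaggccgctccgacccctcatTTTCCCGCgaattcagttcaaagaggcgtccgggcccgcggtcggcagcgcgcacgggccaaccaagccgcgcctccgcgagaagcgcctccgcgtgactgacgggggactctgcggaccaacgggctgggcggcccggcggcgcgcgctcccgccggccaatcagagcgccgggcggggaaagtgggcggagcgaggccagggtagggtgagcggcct
Jarid2: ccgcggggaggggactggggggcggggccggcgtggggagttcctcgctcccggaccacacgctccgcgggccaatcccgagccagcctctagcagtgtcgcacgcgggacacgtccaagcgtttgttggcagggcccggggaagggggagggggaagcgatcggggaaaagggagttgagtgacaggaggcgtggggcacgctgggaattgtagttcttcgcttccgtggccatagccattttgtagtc
Only the Suz12 window held such letters, TTTCCCGC on the plus strand. Any of the 4 forms was held by 1.86% of all 32851 promoter windows of this length, and by 2 of 46 windows (4.35%) of the listed genes. CpG dinucleotides numbered 23 in the Ezh2 window, 12 for Eed, 37 for Suz12 and 23 for Jarid2, against a median of 6 over all windows and 22 over the 46 windows found for 36 of the 48 listed genes.

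Jarid2, which helps to bring PRC2 to its targets, read 11.27 and 11.69 in ESCs, 8.43, 8.85, 9.32 and 8.73 in MEFs and 9.47 on the Nanog KO array. Every ESC value thus lay above every fibroblast value, with an ESC minus MEF difference of 2.65 (SE 0.28, 6.27-fold, adjusted p = 0.0043 with limma).

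Eed, the subunit that binds methylated H3K27, read 10.45 and 10.81 in ESCs, 8.67, 8.05, 8.54 and 8.44 in MEFs and 8.22 on the Nanog KO array. It rose by 2.20 in ESCs (SE 0.23, 4.61-fold, adjusted p = 0.0043 with limma). Suz12, which the complex needs for stability, read 11.05 and 11.03 in ESCs, 9.27, 8.83, 9.51 and 9.30 in MEFs and 9.73 on the Nanog KO array. Its ESC values lay close together and stood 1.81 above the MEF mean (SE 0.22, 3.51-fold, adjusted p = 0.0063 with limma).

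Of the catalytic subunits, Ezh2 passed the test and Ezh1 did not, and the difference between them was not tested. Ezh2, the main enzyme of dividing cells, read 10.98 and 11.19 in ESCs, 9.60, 10.46, 9.81 and 10.03 in MEFs and 10.14 on the Nanog KO array. It was higher in ESCs by 1.11 (SE 0.26, 2.16-fold, adjusted p = 0.027 with limma), a call lost when the WT MEFs without DOX, the KO library with DOX or either ESC library was left out. Ezh1, the form found in resting and adult cells, read 8.58 and 8.53 in ESCs, 8.07, 8.87, 9.06 and 8.18 in MEFs and 10.49 on the Nanog KO array. Its ESC values lay within the MEF range, and the difference was 0.005 (SE 0.33, adjusted p = 0.99 with limma), with a sign that changed with the scaling.

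**Figure D2:**
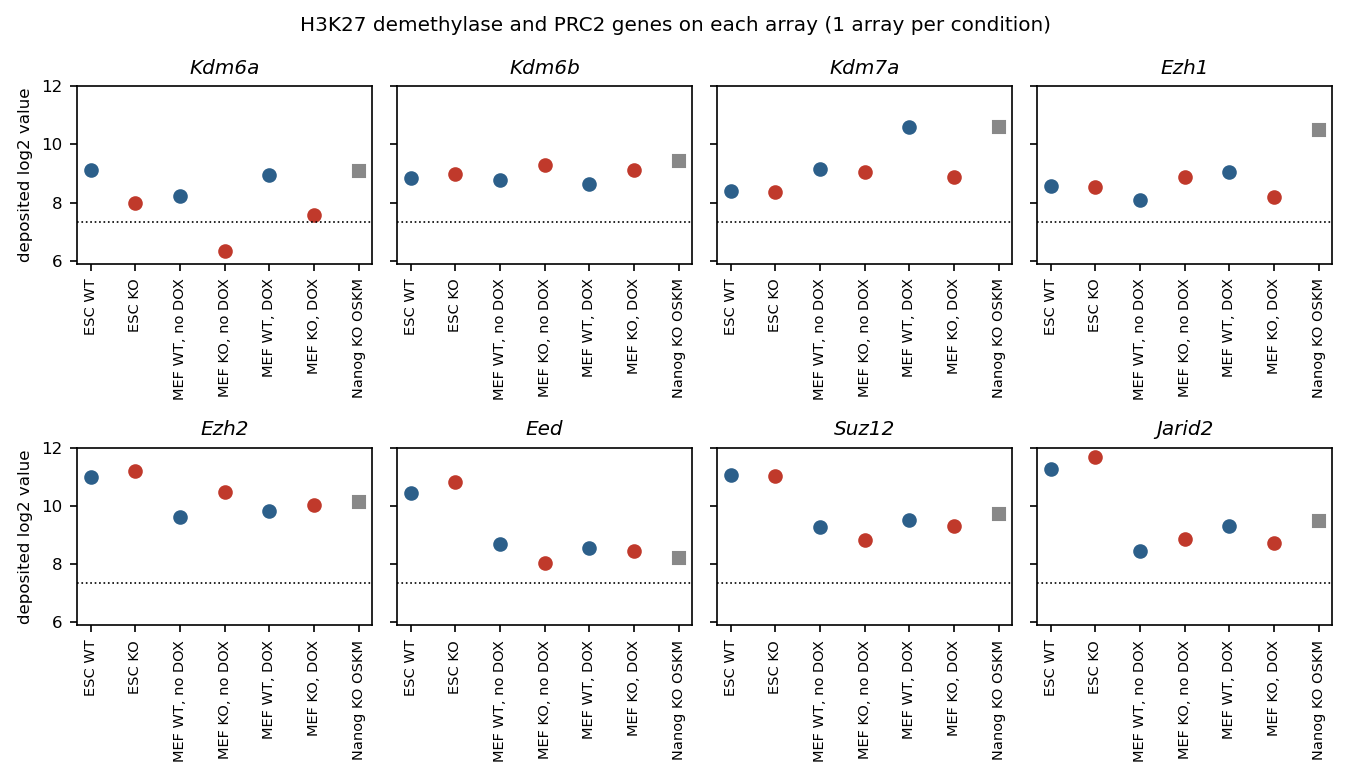
Deposited log2 value on each of the 7 arrays for 3 H3K27 demethylase genes and 5 PRC2 genes, 1 point per array, with WT in blue, libraries labelled Utx KO in red, Nanog KO fibroblasts as grey squares and the floor of 7.34 as a dotted line; levels are not comparable between genes. Eed, Suz12 and Jarid2 are highest on the 2 ESC arrays, and Kdm6a is lower on the red than on the neighbouring blue point in each pair.

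The H3K27 demethylases Kdm6a, Kdm6b and Kdm7a did not pass the test, which 25.0% of all genes passed, and their difference from the PRC2 genes was not tested. Kdm6a read 9.12 and 7.97 in ESCs, 8.22, 6.32, 8.93 and 7.57 in MEFs and 9.08 on the Nanog KO array. Among its WT values and the Nanog KO value, that of the MEFs without DOX was the lowest. With both genotypes in each group, the ESC minus MEF difference was 0.79 (SE 0.73, adjusted p = 0.44 with limma), and it moved from -0.03 without both KO-labelled MEF libraries to 1.37 without the KO ESC library. Kdm6b, whose product is often induced by stress and inflammation, read 8.83 and 8.98 in ESCs, 8.78, 9.30, 8.65 and 9.10 in MEFs and 9.44 on the Nanog KO array. The groups overlapped, at a difference of -0.06 (SE 0.23, adjusted p = 0.87 with limma). Kdm7a, which acts on H3K9 and H3K27, read 8.38 and 8.37 in ESCs, 9.16, 9.05, 10.60 and 8.89 in MEFs and 10.58 on the Nanog KO array. Its groups did not overlap, and the difference of -1.05 (SE 0.49) did not pass the test (adjusted p = 0.16 with limma).

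The H3K4 genes include subunits that several writers share. Of 5 subunit genes, 4 rose in ESCs and 0 fell, beside 14.4% and 10.6% of all genes. Their median was 1.58, against 0.52 for the writers, a contrast that was not tested. Wdr5, a scaffold that holds these complexes together, read 10.25 and 10.63 in ESCs, 8.75, 8.99, 8.98 and 8.23 in MEFs and 9.55 on the Nanog KO array. The ESCs were 3.26-fold above the MEFs (SE of the log2 difference 0.27, adjusted p = 0.011 with limma). Ash2l, which together with Rbbp5 activates the catalytic subunit, read 10.61 and 10.86 in ESCs, 8.89, 9.51, 8.79 and 9.20 in MEFs and 9.41 on the Nanog KO array, at 3.11-fold (adjusted p = 0.010 with limma). Rbbp5 read 9.13 and 9.59 in ESCs, 7.82, 7.69, 7.81 and 7.76 in MEFs and 8.77 on the Nanog KO array, at 3.0-fold (adjusted p = 0.0067 with limma), and the 4 MEF values spanned little.

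Paxip1 and Ncoa6 belong, with Utx, to the complexes of Kmt2c and Kmt2d. Paxip1 read 9.38 and 9.39 in ESCs, 8.28, 8.19, 7.91 and 7.98 in MEFs and 8.26 on the Nanog KO array, higher in ESCs (2.45-fold, adjusted p = 0.0091 with limma). Ncoa6 read 9.65 and 9.73 against 9.17 to 9.54 and did not pass (difference 0.27, SE 0.17). The catalytic members Kmt2c and Kmt2d read 9.45 and 9.56 against 8.15 to 8.67, and 9.38 and 9.54 against 8.89 to 9.20. Kmt2c passed at a difference of 0.998 (adjusted p = 0.022 with limma), and Kmt2d did not, at 0.45 (adjusted p = 0.098 with limma). The differences between these genes were not tested.

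Of 7 H3K4 writers measured, 4 rose in ESCs and 1 fell, with a median of 0.52, beside 14.4% of all genes higher and 10.6% lower. Kmt2b, the writer of promoters held ready for activation, read 9.20 and 9.21 in ESCs, 8.01, 8.13, 8.64 and 7.86 in MEFs and 8.62 on the Nanog KO array, a 2.07-fold difference (adjusted p = 0.031 with limma). Setd1a, which deposits the trimethyl mark at active promoters, was 1.65-fold higher (adjusted p = 0.033 with limma), Kmt2a was 1.43-fold higher at the edge of the test (adjusted p = 0.049 with limma), and Setd1b differed by 0.08 without passing. Kmt2a kept its call in 3 of the 15 alternative settings, Setd1a in 8 and Kmt2b in 9. Kmt2a and Setd1a lost it with genotype as a further term and with the Nanog KO array added. Kmt2b lost it when any MEF library except the WT MEFs with DOX was left out. Setd7, which writes the monomethyl mark and modifies many other proteins, went the other way. It read 7.60 and 6.65 in ESCs, 8.71, 9.14, 9.48 and 9.07 in MEFs and 9.80 on the Nanog KO array. With the ESC mean set to the floor, it was at least 3.39-fold lower in ESCs (adjusted p = 0.013 with limma).

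The H3K4 erasers had a median difference of 0.57, with 2 of 4 higher and 0 lower, against 14.4% and 10.6% of all genes. Kdm5b, a demethylase of the trimethyl mark that is abundant in stem cells, read 10.91 and 11.44 in ESCs, 10.07, 9.96, 9.60 and 10.13 in MEFs and 10.55 on the Nanog KO array (2.35-fold, adjusted p = 0.016 with limma). Kdm1a, the flavin-dependent demethylase Lsd1, was 1.95-fold higher (adjusted p = 0.029 with limma). Kdm5a (difference 0.19) and Kdm1b (0.02), a relative of Kdm1a, had overlapping groups. H3K4 writers, their subunits and H3K4 erasers therefore all included genes that were higher in ESCs.

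For H3K9, writers and erasers likewise each held members that rose. Setdb1, which silences endogenous retroviruses in ESCs, read 9.73 and 9.87 in ESCs, 8.80, 8.68, 8.71 and 8.61 in MEFs and 8.94 on the Nanog KO array, at 2.14-fold (adjusted p = 0.0094 with limma). Suv39h2, a writer of heterochromatin, read 7.35 and 7.60 in ESCs, 5.95, 6.29, 5.94 and 6.07 in MEFs and 5.74 on the Nanog KO array, every fibroblast value lying under the floor. Its difference of 1.41 passed (adjusted p = 0.024 with limma), but with the MEF mean set to the floor the fold was at least 1.10. Ehmt1 and Ehmt2, the paired enzymes of H3K9 dimethylation in euchromatin, did not pass, at 0.20 and -0.21.

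Among 8 H3K9 erasers 3 rose and 1 fell, where 14.4% of all genes rose and 10.6% fell. Kdm3a, a demethylase of the lower methylation states that also responds to hypoxia, read 9.69 and 10.18 in ESCs, 8.56, 8.56, 9.26 and 8.92 in MEFs and 9.73 on the Nanog KO array (2.15-fold, adjusted p = 0.033 with limma). Its call was kept in 8 of the 15 alternative settings and was lost with genotype as a further term. Kdm4c, which acts on trimethylated H3K9 and H3K36, read 9.39 and 9.58 in ESCs, 8.46, 8.09, 8.79 and 8.36 in MEFs and 9.38 on the Nanog KO array (2.09-fold, adjusted p = 0.024 with limma), whereas its relatives Kdm4a and Kdm4b differed by 0.06 and -0.08 and overlapped. Phf8, an X-linked eraser, was 1.80-fold higher (adjusted p = 0.026 with limma). Its relative Phf2 read 7.92 and 7.66 in ESCs, 9.71, 9.50, 9.22 and 9.63 in MEFs and 10.11 on the Nanog KO array, 3.31-fold lower in ESCs (difference -1.73, SE 0.21, adjusted p = 0.0063 with limma). Kdm3b, which removes the same states as Kdm3a, read 10.76 and 10.67 in ESCs, 9.40, 9.87, 10.57 and 9.55 in MEFs and 10.30 on the Nanog KO array and did not pass (difference 0.87, SE 0.33, adjusted p = 0.10 with limma).

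Nsd1, a writer of H3K36 dimethylation, read 10.85 and 10.96 in ESCs, 9.65, 9.63, 9.60 and 9.65 in MEFs and 10.45 on the Nanog KO array. Its MEF values lay close together under both ESC values, a 2.42-fold difference (1.27, SE 0.13, adjusted p = 0.0043 with limma). Setd2, which writes the trimethyl mark along gene bodies, differed by 0.50 and did not pass. Kdm2b, an eraser of H3K36 methylation that also brings Polycomb complex 1 to CpG islands, read 8.53 and 8.92 in ESCs, 7.04, 7.46, 7.07 and 7.36 in MEFs and 7.95 on the Nanog KO array. Both WT MEF values lay under the floor. It was at least 2.61-fold higher in ESCs (adjusted p = 0.011 with limma), while Kdm2a differed by -0.29 and did not pass. Dot1l, the H3K79 writer, read 9.85 and 9.91 in ESCs, 8.86, 8.77, 9.34 and 8.54 in MEFs and 8.98 on the Nanog KO array. The ESCs were 2.0-fold higher (adjusted p = 0.033 with limma). The Dot1l call was kept in 9 of the 15 alternative settings. It was lost when any MEF library except the WT MEFs with DOX was left out.

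Of the family members without a settled target here, the Smyd genes went opposite ways. Smyd3 read 8.95 and 8.96 in ESCs, 7.11, 7.50, 7.29 and 7.44 in MEFs and 9.33 on the Nanog KO array, at least 3.06-fold higher (adjusted p = 0.0066 with limma). Smyd2, which methylates p53 among other proteins, read 8.46 and 8.33 in ESCs, 9.77, 10.02, 9.56 and 9.59 in MEFs and 10.71 on the Nanog KO array, 2.53-fold lower (adjusted p = 0.0094 with limma). Jmjd6 and Kmt2e overlapped between the groups, at 0.02 and -0.38, and Kdm8 lay under the floor on all 7 arrays, at 6.51 to 7.04. By role over all marks, beside 14.4% of all genes higher and 10.6% lower, 7 of 8 writer subunits rose and 0 fell (median 1.67), 9 of 16 writers rose and 1 fell (0.62), and 6 of 16 erasers rose and 1 fell (0.49). The differences between roles were not tested.

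Further genes of histone methylation, taken from a list of 36 of which 35 were measured and 31 lay above the floor, included 8 that rose in ESCs and 2 that fell, where 14.4% of all genes rose and 10.6% fell. Mtf2, a PRC2 partner, read 11.54 in both ESC libraries and 8.33 to 8.79 in the MEFs (difference 2.98, SE 0.18), and Dpy30, another subunit of the H3K4 complexes, differed by 1.40. Kmt5c, a writer of H4K20 methylation, differed by 1.42. Mecom was lower in ESCs, where both values lay under the floor, and with the ESC mean raised to the floor the difference was -0.87. Of 17 measured genes of Polycomb complex 1, which binds methylated H3K27, 16 were tested, 6 rose and 4 fell, beside the same shares of all genes. Cbx7, the main chromatin reader of this complex in ESCs, was under the floor in every MEF library and differed by 2.64 with the MEF mean raised to the floor. Phc1 differed by 2.46 and Pcgf2 by 1.40, against -1.46 for Yaf2.

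Loss of Utx was compared in 3 pairs of libraries, KO minus WT as labelled, given below in the order ESCs, untreated MEFs, MEFs with DOX. Apart from Kdm6a itself, which differed by -1.15, -1.90 and -1.36 on the deposited values, few members stood apart. Where the array probes lie relative to the deleted part of Kdm6a was not examined, and its KO values stayed above the floor in ESCs (7.97) and in MEFs with DOX (7.57). In ESCs Kdm6a was the only member 2-fold or more apart, 1 of 43 above the floor, against 3.83% of all genes (0.651% higher and 3.18% lower). In MEFs without DOX it was again 1 of 42, against 14.6% of genes (5.04% higher and 9.53% lower), although with aligned medians a second member, Ehmt2, reached 2-fold. The KO value of Kdm6a in this pair, 6.32, lay under the floor, and raised to the floor it gave a difference of -0.88 and 0 members at 2-fold. In MEFs with DOX, 4 of 43 members were 2-fold or more lower and 0 higher, against 26.4% of genes (14.3% higher and 12.1% lower), and 3 of 43 with values under the floor raised to it. In limma's fit over the 3 pairs, 0 of 44 members and 0 of 10673 genes passed an adjusted p of 0.05, and 1 member, Kdm6a, and 188 genes had an unadjusted p under 0.05 (1.76% of genes). That fit has 2 residual degrees of freedom, which carry how far the pairs differ from each other.

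**Figure D3:**
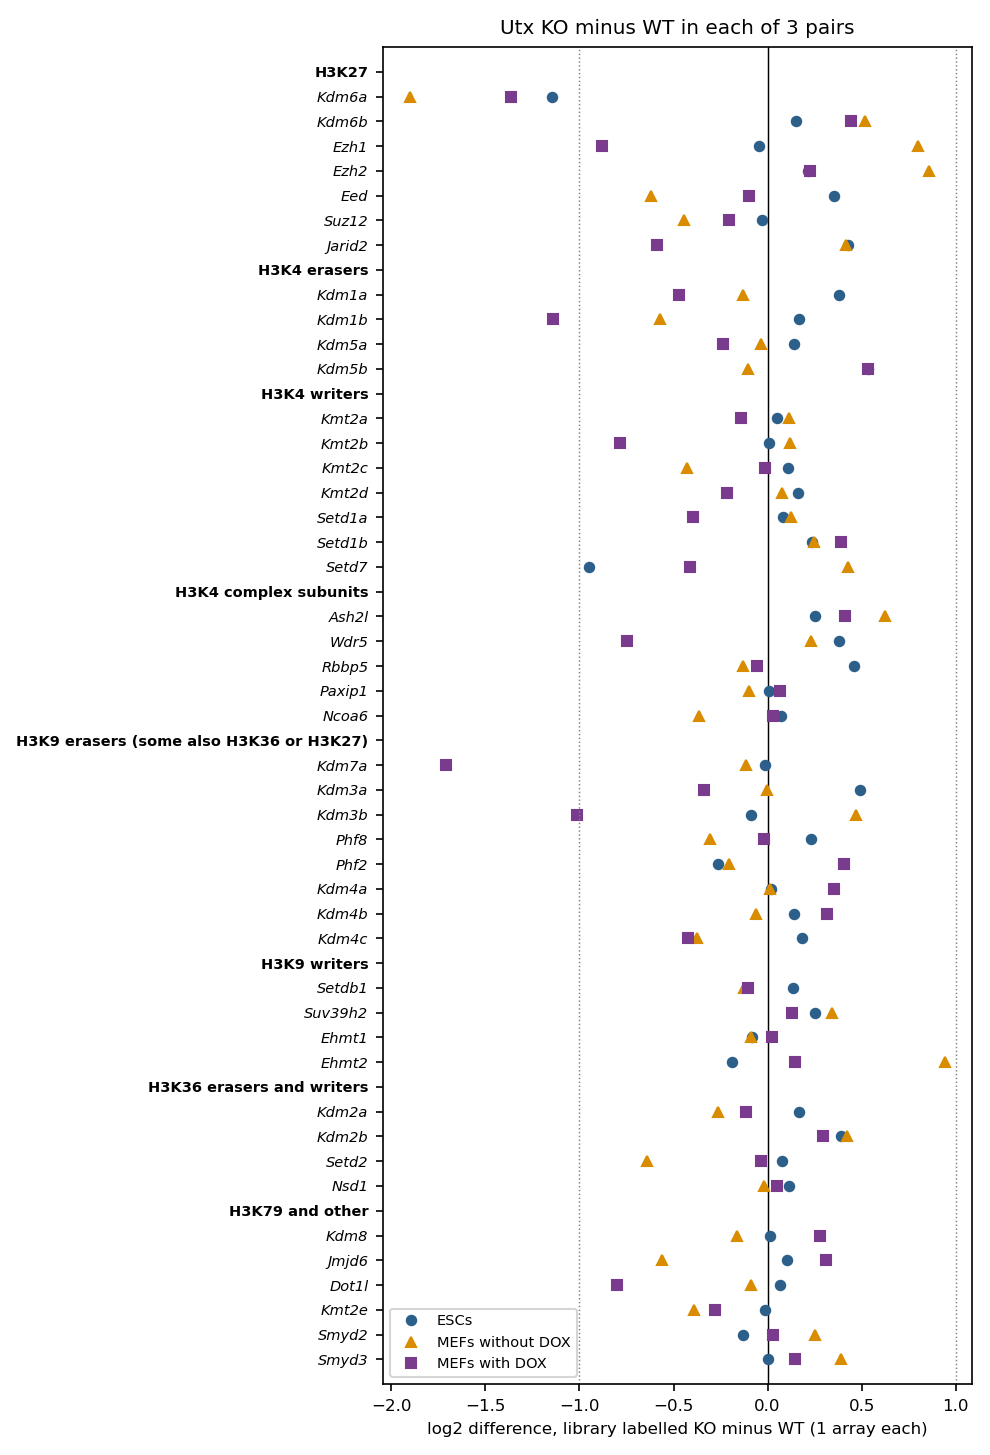
Log2 difference, library labelled Utx KO minus WT, for each of the 45 members in ESCs (circles), untreated MEFs (triangles) and DOX-treated MEFs (squares), 1 array against 1 array; dotted lines mark 2-fold. Kdm6a is the only member left of the lower line in all 3 pairs, and Kdm7a, Kdm1b and Kdm3b pass it only in MEFs with DOX.

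As to compensation within the demethylases of the same mark, Kdm6b read higher in the KO library in 3 of 3 pairs. The 3 differences were 0.15, 0.52 and 0.44, a mean of 0.37 (SE 0.21, unadjusted p = 0.14, adjusted p = 0.99 with limma). Exchanging the 2 KO MEF libraries would leave that mean as it is, because it averages over both MEF pairs. Kdm7a differed by -0.01, -0.11 and -1.71, with signs that the other scalings did not all keep. Uty, the Y-linked relative of Kdm6a, read 8.44 and 3.68 in ESCs, then 7.34, 6.95, 7.55 and 7.61 in the MEF libraries. It differed by -4.76 in ESCs, the lowest value of all genes tested in that pair. With the KO value raised to the floor, the difference was -1.10. In MEFs it differed by -0.39 without DOX, where neither value exceeded the floor, and by 0.07 with DOX.

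Among the 44 members above the floor, 8 were higher in the KO library in all 3 pairs and 4 were lower, 27.3% together against 21.5% of all genes (12.2% higher and 9.34% lower). Under all 3 array scalings these were Ash2l, Ezh2, Kdm2b, Kdm6b, Setd1b and Suv39h2 on the higher side, and Kdm6a, Kmt2e and Suz12 on the lower. Every MEF value of Suv39h2 lay under the floor, so its signs in both MEF pairs compare values not clearly detected. For Kdm2b, with low values raised to the floor, the differences were 0.12 in MEFs without DOX and 0.02 with DOX. The signs of Kmt2e and Suz12 rest on the labels of the KO MEF libraries. In WT MEFs without DOX and the KO library with DOX, Kmt2e read 9.54 and 9.62, and Suz12 read 9.27 and 9.30. Kdm6a alone differed by 0.3 or more in every pair, 1 of 44 members against 2.34% of genes (1.02% higher and 1.32% lower). Cell cycle genes were also higher in the KO library, with medians of 0.16, 1.01 and 0.56 in the 3 pairs, and whether this bears on Ezh2 was not tested.

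The PRC2 genes had mixed signs over the pairs. Ezh2 differed by 0.21, 0.86 and 0.23, a mean of 0.43 (SE 0.21, adjusted p = 0.99 with limma). Ezh1 differed by -0.04, 0.80 and -0.88, Eed by 0.35, -0.62 and -0.10, and Jarid2 by 0.43, 0.42 and -0.59. Suz12 was lower in each KO library as labelled, at -0.03, -0.44 and -0.21. It read 9.27 in WT MEFs without DOX and 9.30 in the KO library with DOX. Exchanging the KO MEF libraries would therefore turn its sign in the pair without DOX. No PRC2 gene reached 2-fold in any pair.

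Among genes of the Kmt2c and Kmt2d complexes, the differences had no common direction. Kmt2c differed by 0.11, -0.43 and -0.01, Kmt2d by 0.16, 0.08 and -0.21, Paxip1 by 0.01, -0.10 and 0.06, and Ncoa6 by 0.07, -0.37 and 0.03. Of the subunits shared with other H3K4 writers, Ash2l differed by 0.25, 0.62 and 0.41, Wdr5 by 0.38, 0.23 and -0.75, and Rbbp5 by 0.46, -0.13 and -0.06. Setd7 was the member closest to 2-fold in ESCs after Kdm6a, at -0.95, from 7.60 to 6.65, or -0.26 with the KO value raised to the floor. In that pair all 10 fibroblast markers were also lower in the KO library, with a median of -2.13, whose part in the Setd7 difference was not tested. In MEFs it differed by 0.43 and -0.41. Ehmt2 read 8.67 and 8.48 in ESCs, 8.29, 9.24, 8.72 and 8.87 in MEFs and 9.92 on the Nanog KO array, and among the MEFs it was highest in the KO library without DOX, by 0.94 over WT. Macrophage markers had a median of -2.98 in the same pair, and their part was not tested.

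The 3 other members lower by 2-fold in MEFs with DOX were all demethylases. Kdm7a differed by -1.71 and Kdm3b by -1.01, from the values given above. Kdm1b, an H3K4 eraser needed in oocytes, read 7.16 and 7.33 in ESCs, 7.33, 6.76, 7.97 and 6.83 in MEFs and 7.74 on the Nanog KO array, a difference of -1.14. Its KO value lay under the floor, and with that value raised to the floor the difference was -0.63, short of 2-fold. The WT MEFs with DOX held the highest MEF value of each of these genes, and this array is shared with the comparison of DOX below. With the medians aligned, Kdm3b lay just under 2-fold, at -0.99. This WT library also differed from its KO counterpart by -5.24 in the median epithelial marker and by 4.62 in the median fibroblast marker, KO minus WT, and the part of this in the 3 genes was not tested.

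Induction of the factors was compared in WT MEFs, with DOX minus without. Of 41 detected members 2 reached 2-fold, both higher, against 25.6% of all genes (11.9% higher and 13.7% lower). Kdm7a read 9.16 without and 10.60 with DOX, a difference of 1.44, and its second array row gave 1.32. Kdm3b read 9.40 and 10.57, a difference of 1.17. The median was 0.09 over the 45 members, against 0.00 over all genes tested, and the highest and lowest members were Kdm7a and Jmjd6, at -0.78. Kdm6a itself differed by 0.71 and Kdm6b by -0.12.

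Among the writers Ezh1 differed most with DOX in WT MEFs, at 0.99, from 8.07 to 9.06. Jarid2 differed by 0.88 and Setd7 by 0.77, whereas Ezh2 differed by 0.21, Suz12 by 0.23 and Eed by -0.13. The H3K4 writers had a median of 0.28, their subunits of -0.07, the H3K9 erasers of 0.17 and the H3K9 writers of -0.05. PRC2 subunits in WT MEFs with DOX therefore remained below both ESC libraries for each of Ezh2, Suz12, Eed and Jarid2. Beside these values, the macrophage markers had a median difference of -3.43, the fibroblast markers of -4.51 and the epithelial markers of 4.97, and their part was not tested.

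Epop, a PRC2 partner outside the member list, read 7.03 without and 9.26 with DOX in WT MEFs, a difference of 1.92 with the first value raised to the floor, and 9.30 in WT ESCs. Riox2, Dpy30 and Aebp2 were the other genes of that list 2-fold or more higher, at 1.40, 1.20 and 1.04, 4 of 30 above the floor against 11.9% of all genes. In Polycomb complex 1, Pcgf5 differed by 1.15 and Bmi1 by -0.87 with their low values raised to the floor.

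In the KO MEFs as labelled, DOX minus without gave 1 of 42 members 2-fold or more apart, against 9.74% of genes (6.81% higher and 2.93% lower). That member was Kdm6a, at 6.32 without and 7.57 with DOX, a difference of 1.25 between libraries of which the first lay under the floor. Raised to the floor, it gave a difference of 0.23 and 0 members at 2-fold. Kdm7a and Kdm3b differed by -0.16 and -0.31, Ezh1 by -0.69 and Wdr5 by -0.75. The second array row of Kdm7a differed by 0.45, of the opposite sign, and the second row of Setd2 by 1.01, against 0.68 in the row used. The member median was 0.02 and that of all genes tested 0.13.

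**Figure D4:**
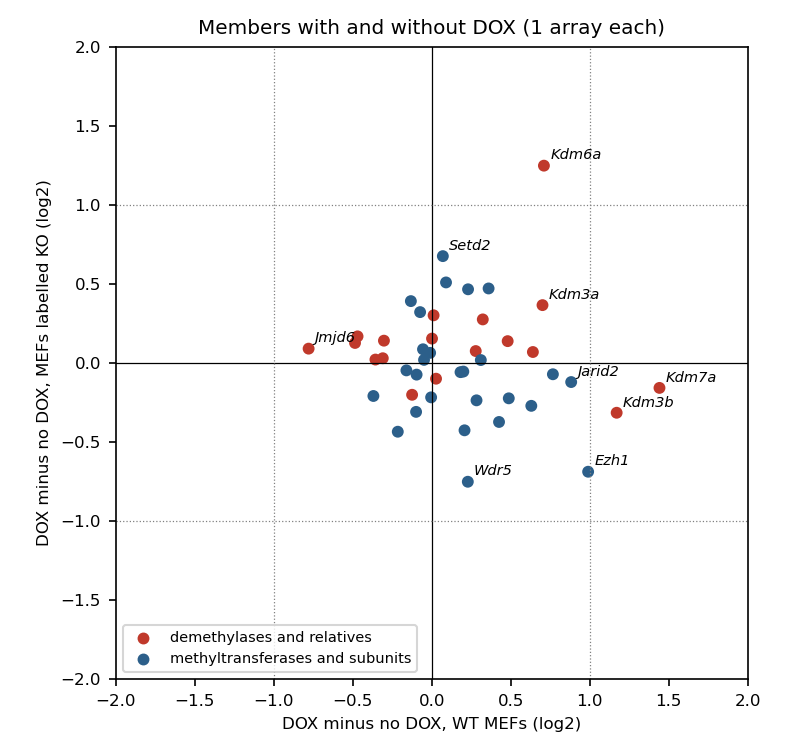
Log2 difference with DOX for each of the 45 members in WT MEFs (horizontal axis) and in the MEFs labelled KO (vertical axis), 1 array against 1 array on each axis; red points are demethylases and their relatives, blue points methyltransferases and subunits, and dotted lines mark 2-fold. Kdm7a and Kdm3b lie beyond 2-fold on the horizontal axis only and Kdm6a on the vertical axis only.

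The Nanog KO fibroblasts were compared with the WT MEFs with DOX, from which they differ in origin and in how the factors were delivered as well. The median gene tested differed by 0.76 and the median member by 0.46. On the deposited values 5 of 43 members were 2-fold or more higher and 0 lower, against 42.7% of genes (37.2% higher and 5.53% lower). With the medians aligned, 1 of 42 was higher and 3 were lower, against 26.4% of genes (13.1% higher and 13.3% lower). Smyd3 was the only member higher under both, at 7.29 in WT MEFs with DOX and 9.33 in the Nanog KO fibroblasts, a difference of 2.03 or, aligned, 1.29. The first of these values lay just under the floor.

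The other 4, higher on the deposited values only, were Ezh1 (1.43), Kdm4b (1.37), Ehmt2 (1.20) and Smyd2 (1.15), which aligned to 0.69, 0.64, 0.46 and 0.41. Kdm4b, an eraser of trimethylated H3K9, read 8.34 and 8.49 in ESCs, 8.61, 8.54, 8.25 and 8.57 in MEFs and 9.63 on the Nanog KO array. Lower after alignment were Dot1l at -1.10, Eed at -1.05 and Kdm3b at -1.01, which on the deposited values were -0.36, -0.32 and -0.27. Kdm6a, Kdm6b and Kdm7a differed by 0.15, 0.78 and -0.02 on the deposited values and by -0.58, 0.04 and -0.76 with the medians aligned. Mean marker levels in the WT MEFs with DOX and the Nanog KO fibroblasts were 7.70 and 12.27 for fibroblasts, 5.98 and 9.07 for macrophages and 10.97 and 8.57 for epithelium, and their part was not tested.

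Across the 6 Utx arrays, the span from lowest to highest value had a median of 1.365 over the 44 members above the floor, against 1.27 over all 10673 genes. It reached 2-fold for 65.9% of members and 63.0% of genes. The widest spans were those of Jarid2 (3.26), Setd7 (2.83), Kdm6a (2.81) and Eed (2.76), and the narrowest that of Ehmt1 (0.30). The lowest values of Setd7 (6.65) and Kdm6a (6.32) lay under the floor, so the places of these genes in that order are not settled. The 4 members with a second array row, Kdm7a, Kmt2d, Setd1b and Setd2, had the same sign of the ESC minus MEF difference in both rows.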

How the data were processed

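Values are log2 expression as the authors deposited them. The submitters' processing notes name Affymetrix Expression Console and RMA, a method that removes background, scales the arrays to each other and merges probes. Software versions and genome build: not given in the sources used here. In all, 21811 rows covered 7 arrays. Groups came from the labels, with 1 array in each of 7 groups. Precision is limited by the number of arrays.

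Gene names came from the platform annotation, and the row with the highest mean over 7 arrays stood for a gene (4 members had 2 rows). Differences of 2 arrays were counted at 2-fold where the higher value exceeded the floor (7.34). limma 3.58.1 in R 4.3.3 (lmFit, eBayes with a trend, Benjamini-Hochberg at 0.05 over 10673 genes) fitted ESCs against MEFs, with 4 residual degrees of freedom, and genotype with context as a term, with 2. The ESC and MEF libraries are unlike conditions used as replicates of a cell type, so the p-values measure the spread among these libraries, which may be technical in part. The fits were tested on simulated data, with known changes and independent noise around a mean shared by the arrays of a gene. Those data held no other differences between conditions, so they do not cover unlike libraries used as replicates. Values in every array are given for the H3K27 genes and for members that passed with a difference of 1 or more, were 2-fold apart in 2 arrays, or differed by 0.3 or more in all 3 genotype pairs. Other members are given by range, difference or count, and at most 4 genes per comparison are named from each further list, by size of difference. Promoter sequences are RefSeq's. Alternatives covered scaling, the floor, 1.5-fold, the row rule, the variance prior, the terms of the fits and libraries left out. The members and lists were chosen with earlier results of these data known. Python 3.11.15 with numpy 2.4.6, pandas 2.3.3 and matplotlib 3.10.9 did the rest.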

Additional observations from a re-analysis of the deposited data

Results flagged for a closer look

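Kdm7a and Kdm3b are listed because their difference with DOX had opposite signs in the 2 genotypes, with 2-fold or more in WT MEFs. It was 1.44 and 1.17 in WT MEFs, and -0.16 and -0.31 in the MEFs labelled KO. The second array row of Kdm7a gave 1.32 and 0.45, of 1 sign. Pou5f1 read 11.26 in the KO library labelled without DOX and 5.12 in the one labelled with DOX, against these labels. Exchanging the 2 KO MEF libraries would turn the sign of each KO difference given here. With 1 array per condition the difference between genotypes was not tested.

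Kdm1b and Kdm3b are listed because the KO minus WT difference changed sign between contexts and reached 2-fold in one of them. For Kdm1b it was 0.17 in ESCs, -0.57 in untreated MEFs and -1.14 in DOX-treated MEFs. For Kdm3b it was -0.0889, 0.47 and -1.01 in the same order. For Kdm1b, both ESC values and both values in untreated MEFs lay under the floor, so its change of sign between these contexts compares values not clearly detected. Its KO value in DOX-treated MEFs lay under the floor too, and with that value raised to the floor the difference was -0.63. These differences rest on the same KO labels and were not tested either. The WT MEFs with DOX enter each 2-fold value given for these genes.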

How the results depend on the processing

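For ESCs against MEFs, 26 members passed, and 22 to 29 did in 10 alternatives on scaling, floor, row rule, variance prior, genotype as a term, the Nanog KO array added, or without either the KO library without DOX or the WT MEFs with DOX. Leaving out 1 library gave 0 to 29 members, and leaving out both KO-labelled MEF libraries, chosen after seeing the data, gave 14. A lone ESC library was assumed to vary like the MEFs. Kdm1a, Kdm4c, Kmt2c and Phf8 kept their calls in 10 of the 15 alternative settings, and Suv39h2 in 9 of its 14. For genotype over 3 pairs, 0 members passed under every alternative run. At 1.5-fold, the members apart numbered 2 of 43 in ESCs (9.40% of all genes), 7 of 42 in MEFs without DOX (34.8%), 9 of 43 with DOX (43.0%), 10 of 41 for DOX in WT MEFs (39.8%), 4 of 42 for DOX in KO MEFs (26.6%) and 16 of 43 for the Nanog KO array (66.9%). In MEFs without DOX, KO minus WT gave 2 members with aligned medians and 2 with quantile normalization, and 0 with the floor at the 60th percentile, which also gave 0 for DOX in KO MEFs. Raising values under the floor to it, chosen after seeing the data, gave 0 in both of these comparisons too. The Nanog KO array gave 3 members with quantile normalization.

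Signs turned only for values that had not passed. For ESCs minus MEFs, Ezh1 turned to -0.0467 with aligned medians, -0.0597 with quantile normalization, -0.28 with the Nanog KO array added and -0.0151 without both KO-labelled MEF libraries, and it ranged from -0.15 to 0.18 with 1 library left out. Kdm6b turned to 0.18 without both of those libraries and ranged from -0.1576 to 0.0568 with 1 left out, and Kdm6a turned to -0.0251 without both. For genotype, Ezh1 turned to 0.0038 with aligned medians and 0.0019 with quantile normalization. With 1 pair left out it ranged from -0.462 to 0.38, Jarid2 from -0.085 to 0.4225 and Eed from -0.3588 to 0.13. The causes were not tested. Signal near the floor limits Kdm1b, Kdm8 and Suv39h2.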
